A study of Mus musculus with 44 samples.

Results

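A set of 7 genes of the tumour necrosis factor (TNF) and CC chemokine families was followed. The set was chosen by name, with earlier results of these data known, so its p-values are not those of a blind choice. Tnf, Lta and Ltb lie side by side on chromosome 17, and Ccl3, Ccl4, Ccl5 and Ccl2 lie on chromosome 11. They are 7 of the 21896 protein-coding genes with a span in RefSeq on GRCm38.p6 (mm10). A cytosine was counted with a gene when it lay inside the gene's span or within 1000 bp of either end. Of the 1654715 cytosines found in any of the 9 deposited tables, 80 met this rule, and they fall on 72 CpGs, some of which were read on both strands. Only 5 of the 7 genes held a cytosine. None was measured for Ccl5 (chr11:83525778-83530518), whose nearest measured cytosine lay 3123 bp from the span, or for Ccl2 (chr11:82035577-82037452), whose nearest lay 2465 bp away, so nothing can be said about either gene here.

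The assay was RRBS, reduced representation bisulfite sequencing, which reads CpG-rich fragments of DNA and gives, per cytosine, the percentage of reads found methylated. Adult wild-type male C57BL/6J mice aged 8 to 12 weeks gave 44 libraries in 3 tissues (whole blood, hippocampus, frontal cortex). Every mouse, controls included, had received the agents of a Gulf War Illness model. These were corticosterone (CORT) at 200 mg/L in drinking water with 0.6% ethanol over 7 days, diisopropyl fluorophosphate (DFP, an acetylcholinesterase inhibitor) at 4 mg/kg into the peritoneum on day 8, and further 7-day CORT courses in alternate weeks up to 5 weeks. On the last day the mice were given saline or 0.5 mg/kg lipopolysaccharide (LPS, bacterial endotoxin) under the skin. All saline tissue was taken at 6 h and served as the control for LPS at 6, 12 and 24 h, so the 3 comparisons of a tissue share their controls, and at 12 and 24 h treatment and time of collection cannot be told apart. Blood had 4 saline libraries and 4, 3 and 3 LPS libraries at 6, 12 and 24 h, hippocampus 3 and 4, 3 and 4, and cortex 4 and 4, 4 and 4. CORT and DFP were thus common to all groups compared. Whether libraries of one group come from different mice is not stated, so the p-values reflect only the scatter among these libraries, which may be technical.

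TNF is the inflammatory cytokine that macrophages release within hours of meeting LPS, through Toll-like receptor 4 and the transcription factor NF-kB. Lymphotoxin alpha (Lta) and lymphotoxin beta (Ltb) are its relatives, made mainly by lymphocytes, and together form the ligand of the lymphotoxin beta receptor that shapes lymphoid organs. CCL3 and CCL4 (macrophage inflammatory proteins) and CCL5 attract leukocytes to inflamed tissue, and CCL2 draws monocytes through CCR2. CpG methylation near a gene is known to differ between blood cell types, and low methylation at a start site is common in cells that use the gene.

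The measured cytosines lay in 5 places. For Tnf (chr17:35199367-35202007, minus strand) none lay inside the span: 2 stood 147 and 248 bp beyond its 3' end, and 4 stood in the interval between Tnf and Lta, 838 to 1000 bp before the Tnf start. Lta (chr17:35203165-35205578, minus strand) held the same 4 and 2 more in that interval, so its 6 cytosines lay up to 320 bp beyond its 3' end and none inside its span. Ltb (chr17:35194507-35196305, plus strand) had 67 cytosines, of which 4 lay within 77 bp before its start and 63 in a CpG-dense stretch from position 35195520 to 35196308 in the second part of the gene. Ccl3 (chr11:83647843-83649378, minus strand) had 5 cytosines inside its span, 1054 to 1195 bp after its start. The RefSeq span of Ccl4 (chr11:83648624-83664683, from 1 curated and 1 predicted transcript) overlaps that of Ccl3, and its cytosines were the same 5, all 300 to 441 bp outside it. Values given for Ccl3 are therefore those of Ccl4 as well, and say nothing of Ccl4 apart from Ccl3.

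The 250 bases before the start are shown for Ltb, whose measured start cytosines are the capitals, and for Tnf and Ccl3, whose promoters held no measured cytosine and where every CG is in capitals. All are RefSeq sequences on GRCm38.p6, written 5' to 3' on the gene's strand (Ltb chr17:35194257-35194506, plus; Tnf chr17:35202008-35202257, minus; Ccl3 chr11:83649379-83649628, minus).
Ltb: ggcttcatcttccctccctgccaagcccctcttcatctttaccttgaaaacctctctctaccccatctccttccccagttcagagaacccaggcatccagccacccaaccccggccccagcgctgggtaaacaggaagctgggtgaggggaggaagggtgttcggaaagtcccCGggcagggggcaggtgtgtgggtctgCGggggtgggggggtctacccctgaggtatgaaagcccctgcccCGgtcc
Tnf: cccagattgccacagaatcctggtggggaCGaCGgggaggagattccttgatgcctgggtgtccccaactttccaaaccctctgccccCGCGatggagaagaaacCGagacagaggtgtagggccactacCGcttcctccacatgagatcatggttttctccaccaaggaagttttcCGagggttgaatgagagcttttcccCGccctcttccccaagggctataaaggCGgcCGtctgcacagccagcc
Ccl3: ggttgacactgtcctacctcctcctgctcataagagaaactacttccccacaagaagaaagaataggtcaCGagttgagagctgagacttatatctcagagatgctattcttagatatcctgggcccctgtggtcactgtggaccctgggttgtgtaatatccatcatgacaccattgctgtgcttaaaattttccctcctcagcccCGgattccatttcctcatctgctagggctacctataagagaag
The Ltb stretch holds 6 CG and 3 copies of CCGG, the site of the enzyme MspI commonly used in RRBS. All 4 measured cytosines of that stretch fell on a CG of the sequence, the outermost CG being read on both strands and the other 2 CGs on the minus strand only. The Tnf stretch holds 10 CG and no CCGG, and the Ccl3 stretch 2 CG and 1 CCGG; CCGG, which reads the same on both strands, occurs in 47.1% of the 32851 RefSeq promoter stretches of 250 bases. The NF-kB consensus, searched on both strands, matched once in the Ltb stretch, from 87 bp before the start and ending directly before the outermost capital CG, and did not match in the Tnf or Ccl3 stretch; 7.25% of all stretches hold a match. A match is a match of letters only, not a binding site.

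Whole blood differed widely between saline and LPS libraries, and this frames every blood value below. The mean over all cytosines was 33.6% ± 0.179 (SD, n = 4) in saline and 35.5% ± 0.822 (n = 4) at LPS 6 h, with 31.5% against 33.9% in the 12 h table and 32.9% against 34.9% in the 24 h table, and in each table the lowest LPS library was above the highest saline library. Of all genes tested, 52.3% were called at 6 h, 56% at 12 h and 49.8% at 24 h (limma on gene means, adjusted p under 0.05). More genes were called higher (42.5%, 48.1% and 41%) than lower (9.8%, 7.91% and 8.83%). Markers of neutrophils moved with treatment as well: 10 of 11 tested marker genes were lower at 6 h, 9 of 11 at 12 h and 10 of 11 at 24 h, with median differences of -15.7, -26.0 and -26.1 points against 1.15, 1.66 and 1.27 points over all genes tested. This list, like the other lists below, was chosen with earlier results of these data known. The labels give no extraction or sequencing batch, so a batch that followed the groups cannot be told apart from LPS, and no measurement here checks the group labels of the blood libraries. In bulk blood, a change in which cells are present and a change of methylation within a cell type cannot be told apart, and the part of either in the values below was not tested.

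Tnf methylation was higher in every LPS blood library than in any saline library. The mean over its 5 blood cytosines was 62.1, 67.0, 67.2 and 63.1% in the 4 saline libraries. It was 84.3, 81.2, 91.6 and 87.4% at LPS 6 h, 89.6, 87.8 and 89.0% at 12 h, then 88.5, 91.5 and 87.6% at 24 h. The LPS groups do not overlap with saline at any time. From 64.9% ± 2.64 (SD, n = 4), the group mean went to 86.1% ± 4.46 (n = 4) at 6 h, a rise of 21.3 points (SE 2.28, adjusted p = 8.39e-05). The rise was 23.9 points (SE 1.499, adjusted p = 1.24e-05) at 12 h and 24.4 points (SE 1.71, adjusted p = 1.85e-05) at 24 h. With each library centred on its own mean, the rise was still 19.4, 21.5 and 22.3 points (adjusted p = 6.37e-05, 1.33e-05 and 5.96e-06).

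The rise rested on the pair of cytosines beyond the 3' end of Tnf. At position 35199119 (plus strand), 248 bp past the 3' end, methylation was 19.8, 30.6, 26.8 and 21.7% in saline blood. It was 78.9, 74.4, 88.6 and 77.8% at LPS 6 h, 91.3, 86.2 and 87.5% at 12 h, then 80.6, 88.6 and 81.1% at 24 h. The minority state of this cytosine in saline blood was thus the majority state in all 10 LPS libraries. The difference was 55.2 points (SE 5.92, adjusted p = 4.08e-06) at 6 h, 63.6 points (SE 5.72, adjusted p = 1.18e-05) at 12 h and 58.7 points (SE 6.04, adjusted p = 9.59e-06) at 24 h, from limma over all single cytosines. At position 35199220 (minus strand), 147 bp past the 3' end, saline libraries held 27.3, 37.0, 26.5 and 28.6% and LPS libraries 75.9, 63.3, 80.4 and 73.3% at 6 h, 77.3, 82.4 and 79.5% at 12 h, then 91.9, 92.1 and 95.7% at 24 h. Its differences of 43.4, 49.9 and 63.4 points all passed (adjusted p = 3.07e-05, 2.54e-05 and 7.80e-06). Because only 2 of 5 cytosines moved this far, the median over cytosines rose by only 6.55 points at 12 h (adjusted p = 0.101) and 7.31 points at 24 h (adjusted p = 0.0714), so the gene-level call at those times depends on averaging; and with the span alone Tnf had no cytosine to test.

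Lta was not called in blood at any time. The interval between Tnf and Lta was highly methylated in every blood group: the means of its 5 blood cytosines ran from 81.8 to 95.8% in saline and from 84.7 to 97.4% over the 3 LPS groups, and no cytosine was called at any time, with differences from -4.40 to 8.16 points. Lta, whose mean comes from this interval alone, went from 89.2% ± 3.41 (SD, n = 4) in saline to 90.8% ± 4.47 (n = 4), 91.0% ± 2.63 (n = 3) and 89.9% ± 1.15 (n = 3), with adjusted p = 0.632, 0.498 and 0.799. Saline libraries at 86.7, 86.6, 93.9 and 89.6% and LPS 6 h libraries at 88.6, 86.6, 97.0 and 90.9% overlapped. At position 35203064, the cytosine nearest to the Lta span, just past its 3' end, saline blood stood at 89.3% ± 6.36 and LPS blood at 90.0% ± 7.22, 91.5% ± 5.24 and 91.8% ± 4.43. Of the 4 cytosines that Tnf and Lta share, 3 were measured in blood and none of these was called, while both that belong to Tnf alone were.

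**Figure D1:**
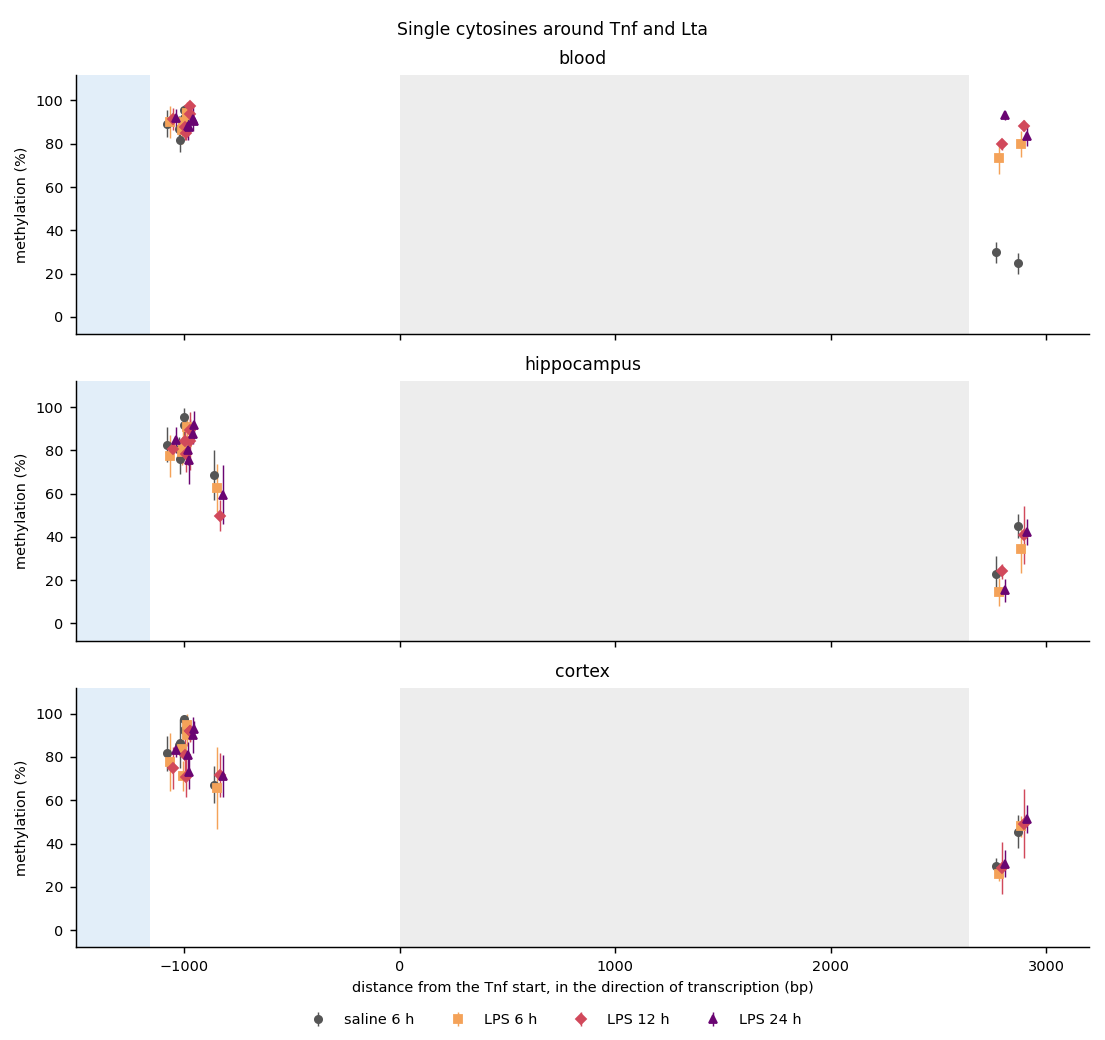
Methylation (%, vertical axis) of single cytosines around Tnf and Lta against distance from the Tnf start (bp, in the direction of transcription; groups shifted sideways slightly), as group mean with SD bars in blood, hippocampus and cortex; grey marks the Tnf span and blue the near part of the Lta span. In blood the 2 cytosines past the Tnf 3' end stand at 24.7 and 29.8% in saline and at 73.2 to 93.2% after LPS, while brain groups stay between 14.4 and 51.4% there.

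Ltb fell in LPS blood at its start site, where saline blood was partly methylated. At position 35194502 (minus strand, 5 bp before the start, the last capital CG of the sequence above), saline blood held 40, 28, 37.5 and 45%. LPS blood held 8.70, 16.7, 2.94 and 0% at 6 h, 0, 11.5 and 5.41% at 12 h, then 4.55, 0 and 0% at 24 h. Every LPS library was below every saline library, and 4 of the 10 LPS values were 0. The difference was -30.5 points (SE 4.99, adjusted p = 1.40e-04) at 6 h, -32.0 points (SE 5.09, adjusted p = 2.82e-04) at 12 h and -36.1 points (SE 4.83, adjusted p = 4.99e-05) at 24 h. At position 35194458, the middle capital CG 49 bp before the start, saline blood at 33.4% ± 4.04 (SD, n = 4) went to 3.88% ± 5.92 (n = 4), 3.09% ± 3.30 (n = 3) and 2.20% ± 0.535 (n = 3), and the differences of -29.5, -30.3 and -31.2 points all passed (adjusted p = 4.42e-05, 9.30e-05 and 4.96e-05).

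The outermost CG of the Ltb start behaved otherwise. At position 35194431 (minus strand, 76 bp before the start), saline blood held 11.1, 46.7, 57.6 and 38.5%, LPS 6 h blood 47.8, 0, 47.1 and 4.35%, LPS 12 h blood 9.52, 50 and 55.9%, and LPS 24 h blood 0, 65.7 and 56.2%. Libraries of one group spanned up to 65.7 points, the groups overlapped, and no call was made (adjusted p = 0.395, 0.999 and 0.926). This cytosine was chosen for description after its values were seen. It lies in a CCGG, as does the called one 5 bp before the start, while the called one at 49 bp does not, and the read depth behind any of these values is unknown.

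The CpG-dense stretch of Ltb was nearly unmethylated in every tissue. Of its 63 cytosines, 52 had a group mean under 5% in all groups that measured them, and the highest group mean of the other 11 was 23.5%. Only 1 was called in blood, at each of the 3 times: at position 35195623, 14.1% ± 4.92 (SD, n = 4) in saline went to 3.51% ± 5.10, 1.55% ± 1.52 and 1.90% ± 1.96 (adjusted p = 0.0419, 0.0162 and 0.0204), with overlapping libraries at 6 h, and this cytosine too was picked after its values were seen. At position 35196308, 3 bp past the 3' end and the Ltb cytosine nearest to an end of the gene, group means ran from 0 to 4.14%. Because these many near-zero cytosines dominate the average, the Ltb gene mean in blood was low, at 3.19% ± 0.474 (n = 4) in saline against 1.28% ± 0.670 (n = 4) at 6 h and 1.48% ± 0.751 (n = 3) at 24 h, and 3.65% ± 0.543 against 1.27% ± 0.595 (n = 3) on the 48 cytosines of the 12 h table. These means lie under the 5% limit for testing. With no such limit the differences of -1.91, -2.39 and -1.71 points were called (adjusted p = 0.00303, 0.00184 and 0.0111).

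**Figure D2:**
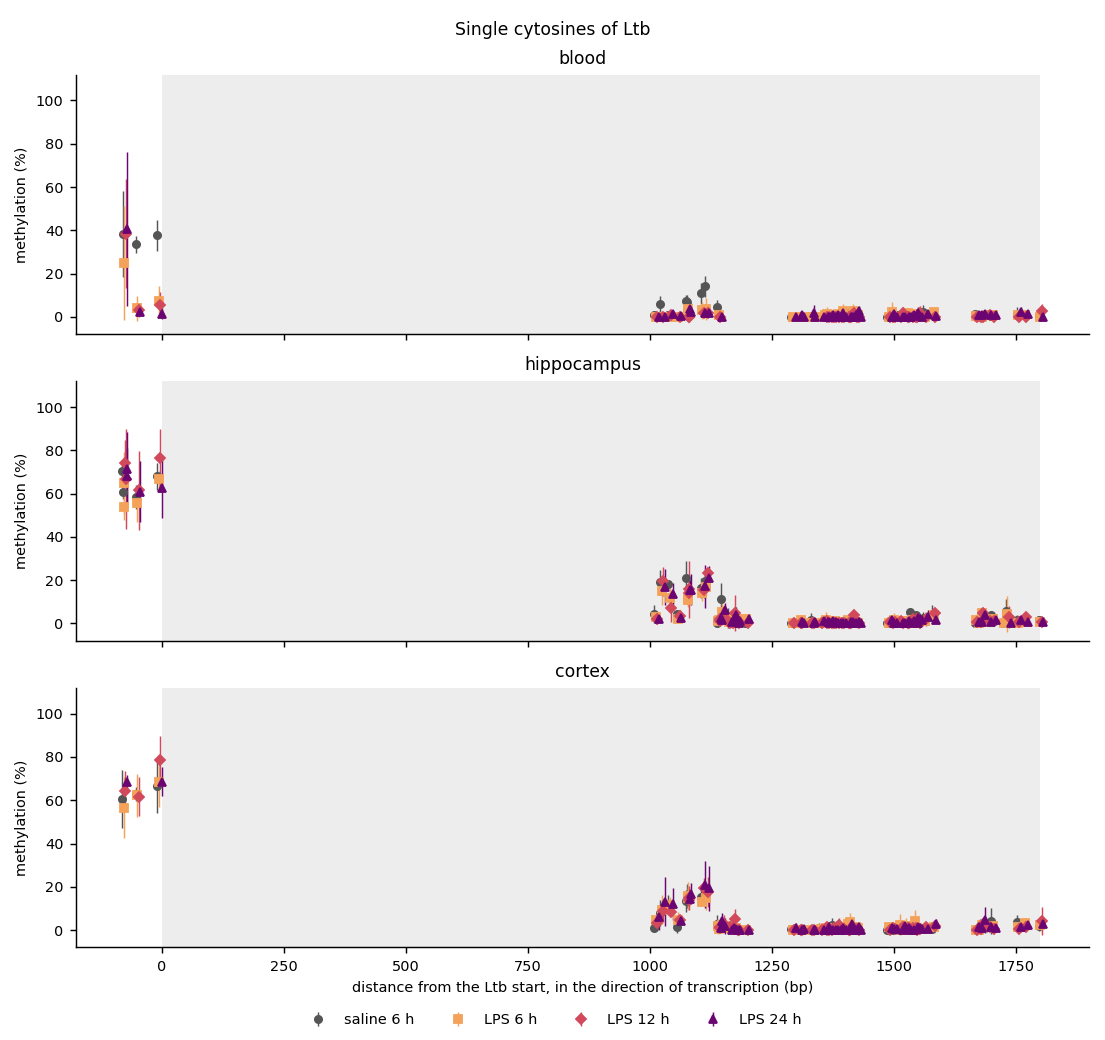
Methylation (%, vertical axis) of single Ltb cytosines against distance from the Ltb start (bp; groups shifted sideways slightly), as group mean with SD bars in each tissue; grey marks the gene's span. The cytosines 5 and 49 bp before the start stand at 33.4 to 37.6% in saline blood, at 1.52 to 7.08% in LPS blood and at 55.5 to 78.6% in brain, while most of the dense stretch lies under 5% everywhere.

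Ccl3, the one chemokine gene of the set with cytosines inside its span, fell in LPS blood. The mean over its 5 cytosines was 78.9, 73.3, 67.5 and 78.0% in saline. It was 31.7, 32.3, 39.1 and 41.7% at LPS 6 h, 31.7, 43.5 and 29.8% at 12 h, then 35.9, 36.2 and 28.8% at 24 h. The highest LPS library, at 43.5%, stood well below the lowest saline library, at 67.5%, so the groups do not overlap at any time. From 74.4% ± 5.25 (SD, n = 4) the mean went to 36.2% ± 4.96 (n = 4) at 6 h, a difference of -38.2 points (SE 3.08, adjusted p = 1.80e-05). The difference was -39.4 points (SE 3.97, adjusted p = 1.20e-04) at 12 h and -40.8 points (SE 3.065, adjusted p = 2.64e-05) at 24 h. Ccl3 moved against the direction of the library means, and centring each library made the differences -40.2, -41.9 and -42.8 points (adjusted p = 1.03e-05, 6.62e-05 and 7.79e-06).

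All 5 Ccl3 cytosines were called at each time, but by unequal amounts. At position 83648324 (minus strand, 1054 bp after the start), saline blood held 68.9, 69.4, 50 and 74.1%. LPS blood held 4.76, 21.2, 5 and 6.52% at 6 h, 2.38, 9.52 and 4.17% at 12 h, then 4.35, 5.13 and 1.96% at 24 h (chosen as the largest difference of the gene, -61.8 points at 24 h, SE 6.41, adjusted p = 9.86e-06). It went from mostly methylated to nearly unmethylated in these libraries. The cytosine 11 bp away on the same strand fell alike, from 67.7% ± 8.66 to 16.5% ± 7.08, 12.2% ± 0.298 and 7.90% ± 2.50. The 3 on the plus strand kept more methylation. At position 83648183, the one nearest to an end of the span (340 bp from the 3' end), saline blood at 85.9% ± 4.30 went to 57.7% ± 16.98 (n = 4), 63.3% ± 15.4 (n = 3) and 56.1% ± 5.07 (n = 3) (adjusted p = 0.00578, 0.0178 and 6.37e-04), with overlapping libraries at 12 h. At position 83648236 the libraries overlapped at 6 h. Over all 5, differences ran from -56.2 to -19.2 points at 6 h, -60.2 to -22.6 at 12 h and -61.8 to -15.4 at 24 h. Position and strand changed together along this stretch, so the 2 cannot be told apart, and the difference between cytosines was not tested.

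**Figure D3:**
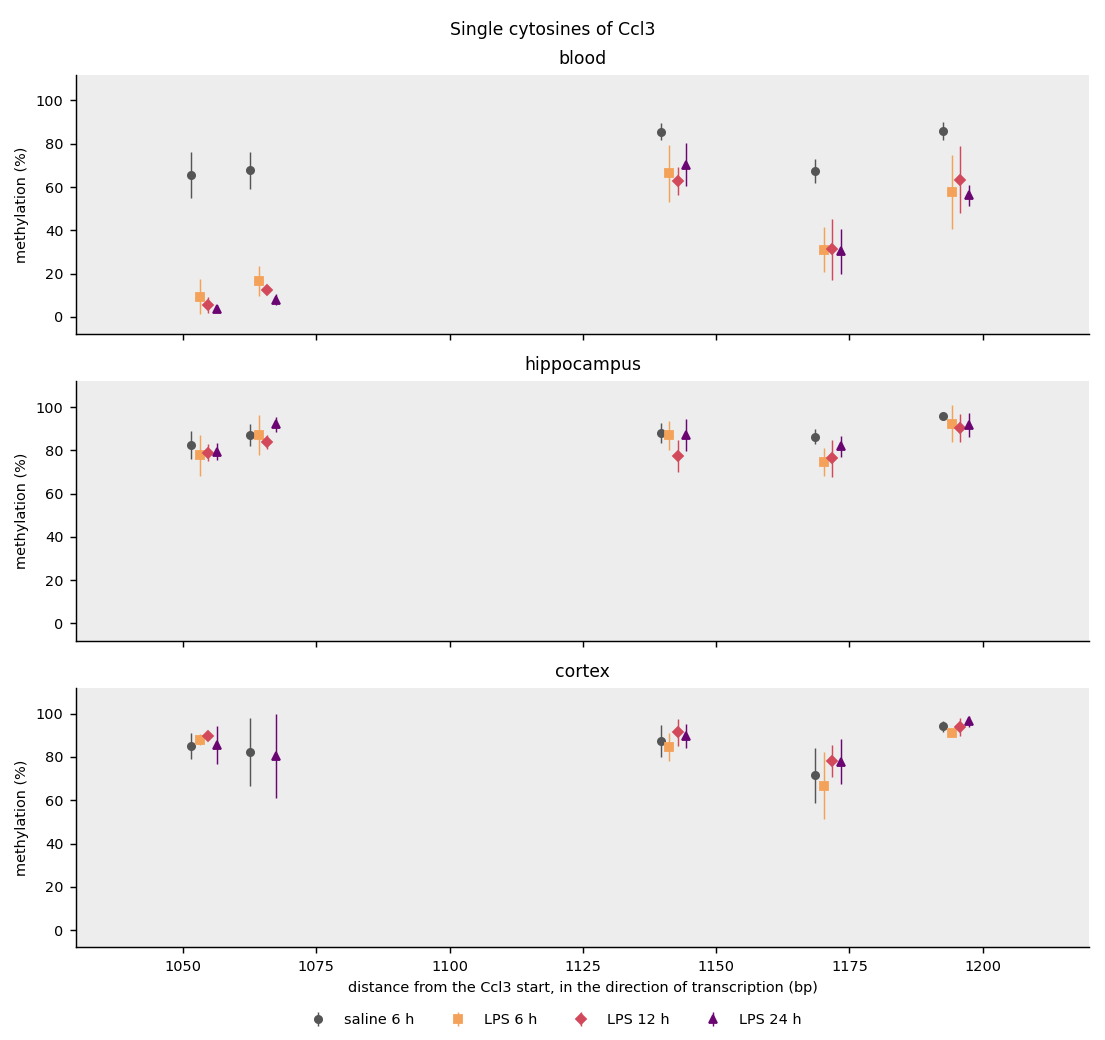
Methylation (%, vertical axis) of the 5 Ccl3 cytosines against distance from the Ccl3 start (bp; groups shifted sideways slightly), as group mean with SD bars in each tissue; the whole window lies inside the span (grey). In blood the cytosines nearest to the start drop from 65.6 and 67.7% in saline to 3.81 to 16.5% after LPS, and brain means stay between 66.7 and 96.5%.

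Over all member cytosines, 10 were called in blood at each time, of 18 tested at 6 h, 17 at 12 h and 18 at 24 h, each time 2 higher (Tnf) and 8 lower (Ltb and Ccl3). Of all cytosines tested, 28.2%, 30.2% and 29.1% met both limits (10 points or more, adjusted p under 0.05), with 20.6%, 23.1% and 21% higher and 7.63%, 7.13% and 8.07% lower. At the level of gene means, Tnf was called higher and Ccl3 lower of the 3 distinct values tested at each time (Tnf, Lta and Ccl3), where the same call was met by 52.3%, 56% and 49.8% of all genes. Being called in blood was thus common among genes in general.

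**Figure D4:**
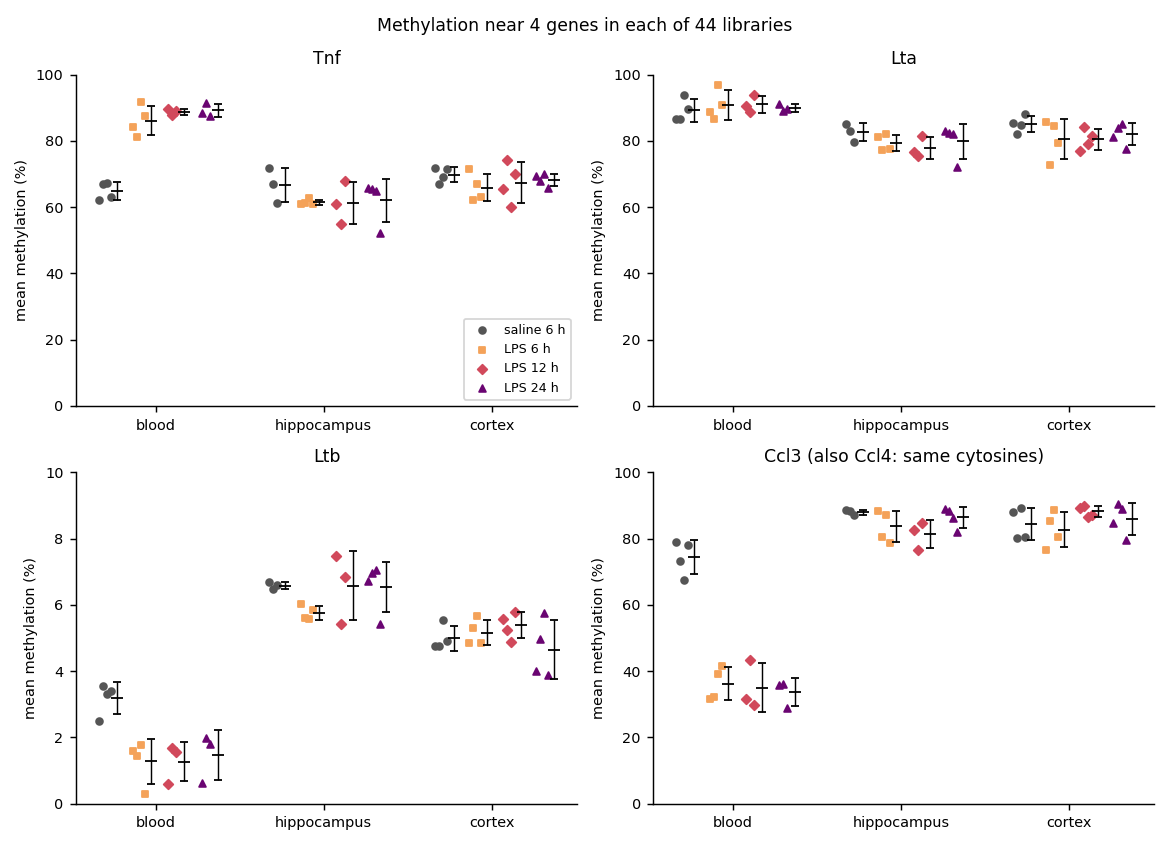
Mean methylation (%, vertical axis) near Tnf, Lta, Ltb and Ccl3 in each library of the 12 groups, from the table of each time and with saline from the 6 h table; points are libraries, bars beside them mean ± SD, and the Ltb axis ends at 10%. LPS blood stands above saline blood for Tnf (81.2 to 91.6 against 62.1 to 67.2%) and below it for Ccl3 (28.8 to 43.5 against 67.5 to 78.9%), and groups overlap for Lta.

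The blood differences were present at 6 h, the first time measured, and none of Tnf, Lta and Ccl3 was called between LPS times. Ltb had no test between blood times, because its mean lay under the limit for testing. On the cytosines common to the 3 blood tables, Tnf differed by 2.67 points (SE 2.16, adjusted p = 0.914) between 12 and 6 h and by 3.09 points (SE 2.16) between 24 and 6 h, and Ccl3 by -1.19 points (SE 3.78, adjusted p = 0.947) and -2.56 points (SE 3.78). No gene of the 11850 tested was called between any 2 LPS times in blood by limma, so 0% of all genes, with 495, 313 and 283 under an unadjusted p of 0.05 in the 3 contrasts. A p above the threshold does not show that the times were alike.

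Neither brain tissue gave a call for any member tested. Tnf in hippocampus held 71.7, 67.0 and 61.2% in saline, 61.0, 61.1, 62.7 and 60.8% at LPS 6 h, 60.8, 55.0 and 67.7% at 12 h, then 65.7, 65.6, 64.7 and 52.1% at 24 h. The groups overlapped at each time. Differences were -5.24, -5.44 and -4.63 points (SE 2.27, 3.97 and 3.93; adjusted p = 0.164, 0.99986 and 0.674). In cortex Tnf held 66.9 to 71.7% in saline and 59.9 to 74.2% over the 3 LPS groups (differences of -3.88, -2.42 and -1.54 points). At the 2 cytosines past the 3' end, brain groups ranged from 14.4 to 51.4%, against 24.7 and 29.8% in saline blood and 73.2 to 93.2% in LPS blood. Ccl3 in hippocampus went from 87.9% ± 0.763 (SD, n = 3) to 83.7% ± 4.73 (n = 4), 81.3% ± 4.25 (n = 3) and 86.4% ± 3.11 (n = 4), and in cortex from 84.5% ± 4.80 (n = 4) to 82.7% ± 5.34 and 88.2% ± 1.65 (n = 4 each) on the 4 cytosines of the 6 and 12 h tables. On the 5 cytosines of the cortex 24 h table it went from 84.0% ± 6.96 to 86.0% ± 4.91 (n = 4 each). In hippocampus at 12 h the Ccl3 groups do not overlap (76.6 to 84.7% against 87.1 to 88.5% in saline). That difference of -6.61 points (SE 2.25) was not called (limma, adjusted p = 0.99986).

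Lta was not called in brain either, nor was Ltb where its gene mean was tested. In cortex at 24 h the Ltb mean lay under the 5% limit and was not tested. It was 4.06% ± 0.413 (SD, n = 4) in saline and 4.65% ± 0.890 (n = 4) after LPS. Lta was lower after LPS in all 6 brain comparisons, with differences from -4.72 to -2.67 points and no call. Its cytosine of largest difference in any tissue, position 35202845 (measured in brain only, 838 bp before the Tnf start), held 81.8, 64.3 and 60% in hippocampal saline and 47.1, 44.4 and 57.9% at LPS 12 h. These groups do not overlap, and the difference of -18.9 points (SE 9.66) was not called (adjusted p = 0.963). At the Ltb start, group means of the 4 cytosines ran from 54.0 to 78.6% in hippocampus and cortex, against 33.4 to 38.5% in saline blood, a difference that was not tested. The Ltb gene mean in hippocampus at 6 h went from 6.58% ± 0.104 (SD, n = 3) to 5.76% ± 0.218 (n = 4), with no overlap (6.47 to 6.68% against 5.56 to 6.03%), and missed the threshold (-0.821 points, SE 0.204, adjusted p = 0.0556). In that comparison the library means fell as well, from 25.8% ± 0.139 to 24.6% ± 0.324, 6.45% of all genes were called (0.0179% higher and 6.43% lower), and with each library centred the Ltb difference was 0.341 points (adjusted p = 0.453). Centring moves every gene by the full shift of the library means, also one as low as Ltb, so the change of sign follows from it. The cause of the Ltb fall was not tested.

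Over the 6 brain comparisons, no member cytosine was called (limma), and at most 1 of the 19 to 25 tested in a comparison had an unadjusted p under 0.05. Among gene means, 3 member results had one: Ltb in hippocampus at 6 h, Ccl3 in hippocampus at 12 h and Lta in cortex at 12 h. The background was as sparse, since 0% of all cytosines were called in each brain comparison and 0% of all genes in the 5 other than hippocampus at 6 h. At an unadjusted p under 0.05 those 5 comparisons had from 181 of 12442 genes (cortex at 6 h) to 1136 of 11137 (hippocampus at 24 h). There were 275 of 12170 in hippocampus at 12 h and 187 of 12748 in cortex at 12 h. This count is not given for hippocampus at 6 h. Of all cytosines, 10127 of 495762 (cortex at 6 h) to 39258 of 433639 (hippocampus at 6 h) had such a p with at least 10 points.

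Among saline libraries, tissues differed at Ccl3. On the cytosines found in all 9 tables (5 for Tnf, 5 for Lta, 4 for Ccl3), saline blood and saline hippocampus differed by 1.40 points for Tnf (SE 2.37, adjusted p = 0.653), and cortex minus blood was 5.47 points (SE 2.19, adjusted p = 0.0568; 0.0301 with libraries centred). Ccl3 was higher than in saline blood by 12.0 points in hippocampus (SE 2.92, adjusted p = 0.00527) and by 8.38 points in cortex (SE 2.70, adjusted p = 0.0229), contrasts in which 52.2% and 53.5% of all genes were called. The cortex call was lost without saline blood replicate 2 or 3 or saline cortex replicate 1 or 3 (adjusted p = 0.0573 to 0.0631). Neither Tnf nor Ccl3 was called between the 2 brain tissues, where 12.2% of all genes were. Ltb had no test between saline tissues, because its mean lay under the limit for testing.

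The LPS difference itself differed between blood and brain for Tnf and Ccl3. Whether the tissues came from the same mice is not stated, and these contrasts and those between saline tissues treat their libraries as independent. For Tnf, the hippocampal difference minus that of blood was -26.3, -26.7 and -28.1 points at 6, 12 and 24 h, and the cortical one minus that of blood -25.6, -27.7 and -27.0 points (limma interaction contrasts, adjusted p = 7.67e-07 to 5.47e-06). For Ccl3, hippocampus stood above blood by 29.7, 28.0 and 32.9 points and cortex by 33.2, 39.2 and 38.9 points (adjusted p = 4.08e-08 to 4.63e-05). Of all genes, 37.5 to 50.1% were called in these 6 contrasts. Lta was called once, for cortex against blood at 12 h (-8.40 points, SE 3.37, adjusted p = 0.0398), where 46.1% of all genes were, and not with libraries centred (-5.80 points, adjusted p = 0.113). Between cortex and hippocampus none of Tnf, Lta and Ccl3 was called, and 0% of all genes were, with 176 to 1023 genes under an unadjusted p of 0.05. Ltb had no test in any of these tissue contrasts, because its mean on the common cytosines lay under the limit for testing. Whether its LPS difference differed between tissues was thus not tested.

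**Figure D5:**
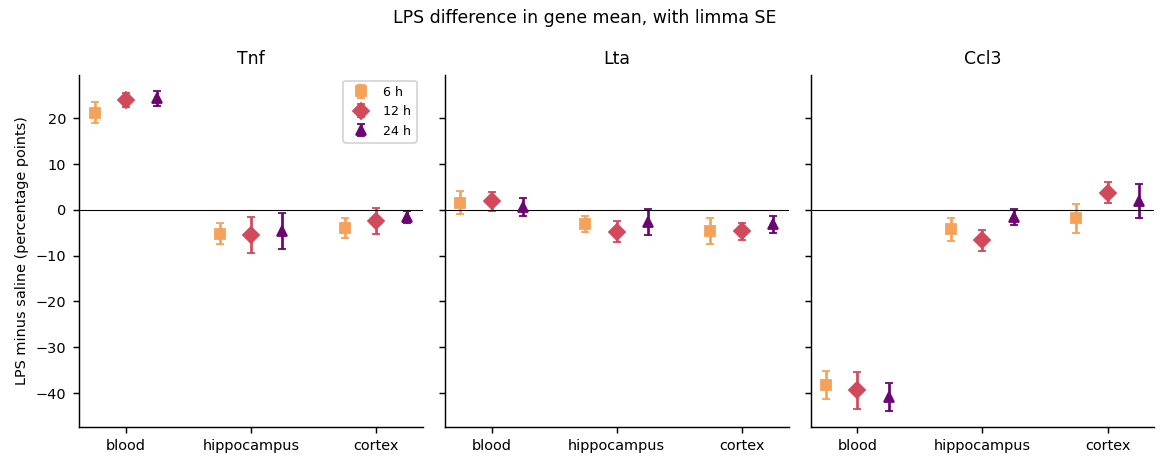
LPS minus saline in the gene mean (percentage points, vertical axis) with its SE from limma, for Tnf, Lta and Ccl3 in each tissue at 6, 12 and 24 h. Blood stands at 21.3 to 24.4 points for Tnf and -38.2 to -40.8 points for Ccl3, while all Lta values and all brain values lie between -6.61 and 3.73 points.

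In order of level over the 12 groups on the same cytosines, Tnf was highest in LPS blood (89.2, 88.8 and 86.1% at 24, 12 and 6 h), with the other 9 groups from 61.2 to 70.3% and saline blood among them at 64.9%. Neighbours in that order among those 9 differ by less than the larger of their SDs. Ccl3 ran the other way, with the 8 brain groups at 80.7 to 88.2%, saline blood at 76.1% ± 4.86 (SD, n = 4), which is within that SD of the lowest brain group, and LPS blood last at 40.1 to 41.1%, values whose SDs of 5.68 to 9.32 exceed their distance. Lta spanned only 82.1 to 91.0%, led by the 4 blood groups. Ltb, on 46 cytosines, spanned 3.88 to 4.76% in brain, 2.25% in saline blood and 0.421 to 0.905% in LPS blood.

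Of 9 TNF superfamily ligands tested in blood at 6 h, 4 were higher and 3 lower, with a median difference of 1.05 points, beside 42.5% higher and 9.8% lower among all genes. The largest were Tnfsf15 (the ligand TL1A), from 21.9% to 64.5% (42.6 points, SE 2.40), Tnfsf14 (LIGHT, which shares the lymphotoxin beta receptor), from 69.4% to 35.6% (-33.8 points, SE 1.10), and Tnfsf4 (OX40 ligand), from 35.8% to 6.51% (-29.3 points, SE 1.61). At 12 h 6 were higher and 3 lower of 10, and at 24 h 4 and 4 of 10. Among all genes, 48.1% and 41% were higher and 7.91% and 8.83% lower at 12 and 24 h. Of the receptors of TNF and lymphotoxin and their signalling proteins, the count was 4 higher and 2 lower of 12 at 6 h. It was 4 and 1 of 11 later at 12 h, then 5 and 2 of 12 by 24 h. Tnfrsf1b, the second TNF receptor, went from 39.3% to 23.3% at 6 h (-15.95 points, SE 1.47), Tnfrsf14 (HVEM, the LIGHT receptor) from 35.7% to 1.67% on 3 cytosines, and the kinase gene Map3k14 (NIK) from 21.6% to 26.2%.

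Of the tested genes on the route from LPS to NF-kB, 7 of 20 were higher and 0 lower at 6 h, 9 of 17 and 0 at 12 h, and 6 of 20 and 0 at 24 h. Among all genes 42.5%, 48.1% and 41% were higher and 9.8%, 7.91% and 8.83% lower, so few lower calls would be found among so few genes, and the list's medians of 1.21, 1.55 and 1.17 points were near those of all genes. Nfkb1, which encodes the p105 and p50 subunit, went from 17.5% to 23.0% at 6 h (5.42 points, SE 0.399), the adaptor gene Tirap from 12.7% to 17.2% and Tab1, an activator of the kinase TAK1, from 20.5% to 24.8%.

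Of other CC chemokines, 2 of 5 tested were higher at 6 h, 1 of 3 at 12 h and 2 of 5 at 24 h, and 0 were lower. Beside these and the next counts, 42.5%, 48.1% and 41% of all genes were higher and 9.8%, 7.91% and 8.83% lower. Ccl28, a mucosal chemokine, rose from 80.5% to 90.8% at 6 h (10.3 points, SE 1.78), and Ccl11 (eotaxin) from 78.4% to 84.0%. CC chemokine receptors gave 2 higher and 1 lower of 7 at 6 h, and 4 and 1 of 7 at both later times. Ccr7, the receptor that guides lymphocytes to lymph nodes, fell from 79.0% to 65.1% at 6 h (a difference of -13.9 points, SE 1.45), while Ccr4 rose from 50.5% to 72.7% (22.2 points, SE 4.38) and the atypical receptor gene Ccrl2 from 24.7% to 35.7%. Other chemokines gave 2 higher and 1 lower of 6 at each time: Pf4 (platelet factor 4) fell from 61.2% ± 5.67 (SD, n = 4) to 6.06% ± 1.87 (n = 4) at 6 h, and Cxcl3 and Cxcl5, which attract neutrophils, rose from 9.60% to 22.7% and from 3.38% to 8.39%. All values named in these lists passed at 6 h (limma, adjusted p under 0.05).

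Genes next to the Tnf locus were called in both directions. Of 4 tested neighbours, 3 were higher and 1 lower at each time, where 42.5%, 48.1% and 41% of all genes were higher and 9.8%, 7.91% and 8.83% lower. Prrc2a went from 30.7% to 38.7% at 6 h (8.01 points, SE 0.593) and Ddx39b, an RNA helicase gene, from 15.0% to 18.6% (3.61 points, SE 0.382). Nfkbil1, named as an NF-kB inhibitor-like gene, went from 19.5% to 14.7% at 6 h (-4.80 points, SE 0.671). The difference between these and Tnf was not tested.

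Markers of the blood cell types gave the following counts of higher and lower at 6, 12 and 24 h. Beside them, 42.5%, 48.1% and 41% of all genes were higher and 9.8%, 7.91% and 8.83% lower. Neutrophil markers were 0 and 10 of 11, 0 and 9 of 11, and 0 and 10 of 11, with Cebpe (a transcription factor of granulocyte maturation) going from 61.3% to 25.8%, the protease gene Ctsg from 73.0% to 38.9% and Mpo (myeloperoxidase) from 71.2% to 40.4% at 6 h. The median level of 10 neutrophil marker genes on the cytosines of all 9 tables was 70.9% in saline blood and 42.5 to 48.6% in LPS blood, and 77.6 to 82.3% over the brain groups. T cell markers were 5 and 4 of 13, then 6 and 4 of 13 at both later times. B cell markers were 2 and 1 of 6, 2 and 2 of 5, and 2 and 2 of 6. Monocyte and macrophage markers were 1 and 2 of 7, 1 and 1 of 5, and 1 and 2 of 7. NK cell markers were 1 and 0 of 1, then 0 and 0 of 1. Erythroid and platelet markers were 2 and 0 of 4, 3 and 0 of 4, and 2 and 0 of 4.

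Markers of cells outside blood were called there too, as were many genes in general. At 6, 12 and 24 h, 42.5%, 48.1% and 41% of all genes were higher in blood and 9.8%, 7.91% and 8.83% lower. Microglia markers were 1 higher and 4 lower of 8 at each time, neuron markers 4, 6 and 6 higher and 0 lower of 9, astrocyte and oligodendrocyte markers 4 higher and 3 lower of 9 at each time, and endothelial markers 2 and 1 of 5, 2 and 0 of 5, and 2 and 1 of 5. The part of any of these in the member values was not tested. In hippocampus at 6 h 8 of the 130 list genes tested were called, all lower, a share of 6.15% beside 6.43% of all genes. Among them were Tnfrsf1a (the first TNF receptor), from 20.7% to 17.2%, Nfkb1, from 13.8% to 12.5%, Ccrl2, Zap70, Itga2b, Aqp4 and Slc1a2. That comparison fell from 720 called genes to 1 with libraries centred, and leaving out 1 library at a time gave 0 to 223. In the other 5 brain comparisons no gene of any list was called, where 0% of all genes were.

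The genes whose means followed each member most closely over the 44 libraries were looked up among 15743 genes on cytosines common to all 9 tables, as a description. Closest to Tnf were Fbxw4, an F-box protein gene (r = 0.964), and Fkbp2, an FK506-binding protein gene, with LOC114841036, which gave the same value (r = 0.960). Among the closest to Lta were Uck2, a uridine-cytidine kinase gene (r = 0.779), and Prr36 (r = 0.770). Closest to Ltb were Rab5c, an endosomal GTPase gene (r = 0.960), Tnfsf4 (r = 0.957) and the focal adhesion gene Zyx (r = 0.957). Closest to Ccl3 were Cytip, a cytohesin-interacting protein gene (r = 0.974), Snx14, a sorting nexin gene (r = 0.971), and Csf2rb, the shared receptor chain for GM-CSF and related cytokines (r = 0.970). The libraries share tissue and treatment, and for Tnf, Ltb and Ccl3 LPS blood stands apart from the other groups, which enters each r.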

How the data were processed

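RRBS libraries were made with the Ovation RRBS Methyl-Seq kit from 100 ng of DNA, per the labels' protocols. The authors deposited percent methylation (0 to 100) per cytosine in 9 tables, 1 per tissue and time, made with Bismark, Bowtie2, methylKit, SAMtools, FastQC and Trim Galore on mm10, per the submitters' processing notes. Versions, any coverage minimum and any normalisation: not given in the sources used here. No read counts were used, so depth is unknown and no intervals for counting error are given, although a thinly read cytosine is less certain. All sample columns were mapped from their names, and the saline values of a tissue were the same in its 3 tables.

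Gene means were taken per library over cytosines from 1000 bp before to 1000 bp after RefSeq spans (GRCm38.p6), for genes with at least 3 cytosines and a mean of 5 to 95%. Tests were two-sided moderated fits from limma (3.58.1; R 4.3.3), with a mean-variance trend and Benjamini-Hochberg adjustment over all genes, and a gene was called at adjusted p under 0.05. Single cytosines were tested likewise and called with at least 10 points. LPS times were compared on cytosines common to a tissue's tables, and tissues and interactions on those common to all 9. The code was tested on simulated data. All members were to be named, with per list at most the 3 called genes of largest difference, and per member the cytosine of largest difference and the one nearest to a gene end. The members and lists were chosen with earlier results of these data known. Lists, written for this work, covered TNF superfamily ligands, TNF and lymphotoxin receptors and signalling, LPS receptor and NF-kB signalling, other CC chemokines, CC chemokine receptors, other chemokines, neighbours of the Tnf locus and cell type markers. Alternatives were centring, a logit scale, medians, other cytosine minimums, no limit on the mean, eBayes without trend, the span alone, common cytosines, a 25-point minimum, a replicate block and leaving out each library. Promoter sequences matched 4 of the 7 members. Some genes that these rules select are not reported here.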

Additional observations from a re-analysis of the deposited data

Results flagged for a closer look

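The LPS difference of Tnf and Ccl3 differed between tissues by a direct test (limma interaction contrasts). For Tnf, hippocampus minus blood was -26.3, -26.7 and -28.1 points at 6, 12 and 24 h, and cortex minus blood was -25.6, -27.7 and -27.0 points. For Ccl3, hippocampus minus blood was 29.7, 28.0 and 32.9 points, and cortex minus blood was 33.2, 39.2 and 38.9 points. For Lta, cortex minus blood at 12 h was -8.40 points (adjusted p = 0.0398), in a contrast where 46.1% of all genes were called. It was not called with libraries centred (adjusted p = 0.113).

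Single libraries lay far from the others of their group of 4 in 9 of the 93 sets of 4 values looked at. For independent, normally spread values, chance alone gives about 1 in 20. That rate does not hold here, since some sets share cytosines and a set with 1 value above 0 always passes. The 9 sets are therefore not shown to exceed chance. In hippocampus at LPS 24 h, replicate 4 was low for Tnf (52.1% against 64.7 to 65.7% in the others) and for Lta (72.1% against 82.2 to 82.9%), genes that share 4 cytosines. At the Ltb cytosine 5 bp before the start, cortex LPS 12 h replicate 1 held 95% (others 71.1 to 75%) and hippocampus LPS 6 h replicate 2 held 60.9% (others 68.2 to 68.8%). At the cytosine nearest to the Lta 3' end, hippocampus LPS 6 h replicate 4 held 62.9% (others 80.5 to 83.8%). At the Ccl3 cytosine 1054 bp after the start, blood LPS 6 h replicate 2 held 21.2% (others 4.76 to 6.52%). At the Ltb cytosine 3 bp past the 3' end, 1 library alone was above 0 in saline blood (4.17%), hippocampus LPS 24 h (3.51%) and hippocampus LPS 6 h (1.96%).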

How the results depend on the processing

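In blood, Tnf rose and Ccl3 fell at all 3 times under every alternative that could test them, with the exception of the median over cytosines for Tnf at 12 h (adjusted p = 0.101) and 24 h (0.0714), and 8 to 11 member cytosines were called whichever library was left out and with libraries centred (7 or 8 at a 25-point minimum). With the span alone, 1 member (Ccl3) was called in each blood comparison, since Tnf and Lta have no cytosine there. The median over cytosines lowered the called genes in blood to 2798, 2796 and 2596, and a 25-point minimum lowered the called cytosines to 77457, 71160 and 81473. Centring turned the uncalled Lta difference in blood to -0.321, -0.611 and -1.33 points and the uncalled Ltb difference in hippocampus to 0.341, 0.247 and 0.307 points, and that of Lta between hippocampus and blood at 24 h to 0.437 points; with medians Ltb in hippocampus at 24 h was 0.463 points. In hippocampus at 6 h the called genes went from 720 to 1 (centred), 461 (at least 1 cytosine), 1 (no limit on the mean), 397 (no trend), 3 (medians) and 355 (common cytosines). In hippocampus at 24 h they went from 0 to 1 (centred) and 2 (common cytosines), and in cortex at 6 h to 1 (no trend). The causes were not tested.

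Leaving out 1 library gave -0.167 to 4.07 points for Ccl3 in cortex at 24 h and -3.79 to 0.247 at 6 h, -0.463 to 3.16 and -0.156 to 2.25 for Lta in blood at 6 and 24 h, -1.32 to 1.09 for Lta in saline cortex minus blood, -0.590 to 0.427 and -0.421 to 0.121 for Ltb in hippocampus at 12 and 24 h, -4.70 to 0.0715 for Tnf in cortex at 12 h and -0.320 to 3.78 for Tnf in saline hippocampus minus blood, none of them called. Counts of called genes ranged from 0 to 223 in hippocampus at 6 h, 0 to 463 at 12 h, 0 to 1 at 24 h, 0 to 1948 between hippocampal LPS at 12 and 6 h (members 0 to 1), 0 to 2 between 24 and 12 h, and 732 to 1255 between saline cortex and hippocampus. Called cytosines in hippocampus at 12 h ranged from 0 to 8464, and members called in saline cortex minus blood, counting Ccl3 and Ccl4 apart, from 0 to 3.

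Replicate numbers are shared between groups in the labels, but the main fits did not take same-numbered libraries as pairs. Their correlations ran from -0.216 to 0.288, and those of differently numbered libraries from -0.393 to 0.383. In blood at 12 and 24 h and hippocampus at 6 and 12 h all same-numbered correlations were positive, at most 0.141. Whether same-numbered libraries deviate together was not tested. With the replicate block, Tnf in blood rose by 21.3, 23.3 and 23.8 points and Ccl3 changed by -38.2, -38.2 and -39.6 points, all called, 0 genes were called in hippocampus at 6 h, and the uncalled Ltb difference in hippocampus at 24 h was 0.121 points.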
